A study of Mus musculus with 4 samples.

Results

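Mitosis genes other than kinesins were followed in neurospheres, balls of dividing neural stem cells and progenitors grown in suspension. The set holds 40 protein-coding genes, chosen by gene symbol from a table of 55599 entries and required to lie on chromosomes 1 to 19 or X. All 40 symbols were found once each, on 15 chromosomes, and none lay on X. The cells were derived from C57BL/6 cortex at embryonic day 12.5 and used at passage 3. There were 2 libraries of polyadenylated RNA from wild-type (WT) cells and 2 from LncBAR-KO cells, in which the long noncoding RNA LncBAR is knocked out. The labels give no further allele, no treatment and no sex, and nothing says that replicates are separate animals or cultures, so the p-values rest on a spread between libraries that may be technical.

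Mitosis is driven by cyclin-dependent kinase 1 bound to cyclin A or B, which is switched on by Cdc25 phosphatases and helped by Polo and Aurora kinases. Chromosomes are then held by kinetochores to spindle microtubules, the spindle checkpoint waits until every kinetochore is attached, and the anaphase-promoting complex ends mitosis by marking cyclin B and securin for destruction. In the embryonic cortex these genes are transcribed by dividing radial glia and other progenitors, and several of them, Aspm among them, are known for their part in brain size.

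Many G2 and M phase genes share 2 short promoter elements, which is why promoters are shown first. The CCAAT box is bound by the factor NF-Y, and the cell cycle genes homology region (CHR) is bound by MuvB complexes, which carry the repressor partners of quiescent cells or, in dividing cells, B-Myb and FoxM1. Promoter sequences from RefSeq (build GRCm38.p6, 250 bases before to 50 after each annotated start) were matched by symbol to 34 of the 40 genes, with 37 promoters. Aurkb, Ccna2, Cdc25c, Incenp, Spc24 and Tpx2 were not matched. Searched as TTTGAA or TTCGAA on both strands, the CHR was found in 28 of these 37 promoters (75.7%), against 19.2% of all 32851 promoters in the table. The letters CCAAT on either strand were found in 29 (78.4%, against 37.4% of all promoters), and both elements in 26 (70.3%, against 7.52%). Promoters of DNA replication and S phase genes, taken from a separate list, held the CHR in 6 of 40 (15.0%) and CCAAT in 23 of 40 (57.5%). Promoters of other mitosis genes, from a further list, lay between these 2 sets for the CHR, found in 42 of 107 (39.3%). They held CCAAT in 57 (53.3%), a lower share than in either set. Both elements were found in 25 of them (23.4%), beside 5 of 40 S phase promoters (12.5%). A match is a description of letters in this window and does not show that a factor binds there.

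The 6 promoters below belong to the genes of highest expression that hold both elements before the start. Each is the 250 bases before the annotated start, 5′ to 3′ on the gene's strand, with every CHR and CCAAT match in capitals (TTCAAA and ATTGG are the same elements on the other strand).
Cdc20 (chr4:118437344-118437593, minus strand): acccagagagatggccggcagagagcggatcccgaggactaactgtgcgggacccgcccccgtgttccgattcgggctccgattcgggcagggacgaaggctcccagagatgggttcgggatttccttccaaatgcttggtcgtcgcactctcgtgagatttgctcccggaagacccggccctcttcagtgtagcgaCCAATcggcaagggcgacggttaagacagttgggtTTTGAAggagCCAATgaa
Top2a (chr11:99024190-99024439, minus strand): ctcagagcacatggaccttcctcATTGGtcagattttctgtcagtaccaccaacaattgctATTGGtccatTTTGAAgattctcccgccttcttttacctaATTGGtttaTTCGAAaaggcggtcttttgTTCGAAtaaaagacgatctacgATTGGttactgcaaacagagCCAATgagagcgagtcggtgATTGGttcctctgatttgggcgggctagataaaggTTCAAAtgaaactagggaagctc
Ube2c (chr2:164769679-164769928, plus strand): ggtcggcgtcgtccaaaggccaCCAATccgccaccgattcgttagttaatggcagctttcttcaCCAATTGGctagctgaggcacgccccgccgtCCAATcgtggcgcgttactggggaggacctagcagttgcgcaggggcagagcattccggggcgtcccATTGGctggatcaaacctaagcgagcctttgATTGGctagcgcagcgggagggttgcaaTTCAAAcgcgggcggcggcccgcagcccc
Ccnb2 (chr9:70421555-70421804, minus strand): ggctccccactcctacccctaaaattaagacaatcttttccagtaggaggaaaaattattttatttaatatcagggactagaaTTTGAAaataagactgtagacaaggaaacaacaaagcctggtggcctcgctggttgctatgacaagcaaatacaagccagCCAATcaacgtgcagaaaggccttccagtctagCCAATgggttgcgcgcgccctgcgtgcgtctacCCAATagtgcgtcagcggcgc
Mki67 (chr7:135716380-135716629, minus strand): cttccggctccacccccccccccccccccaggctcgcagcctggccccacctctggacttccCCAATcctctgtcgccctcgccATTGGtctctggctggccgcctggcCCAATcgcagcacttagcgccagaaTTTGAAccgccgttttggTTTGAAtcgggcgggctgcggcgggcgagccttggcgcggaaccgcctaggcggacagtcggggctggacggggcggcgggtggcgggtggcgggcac
Bub1b (chr2:118597961-118598210, plus strand): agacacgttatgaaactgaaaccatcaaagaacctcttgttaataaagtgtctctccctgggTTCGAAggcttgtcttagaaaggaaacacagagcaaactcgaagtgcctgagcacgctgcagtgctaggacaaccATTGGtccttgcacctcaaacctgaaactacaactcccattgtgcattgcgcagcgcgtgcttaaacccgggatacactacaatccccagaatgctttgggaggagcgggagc
In Cdc20 the CHR begins 18 bases before the start, between CCAAT matches that begin 53 and 8 bases before it. The Top2a promoter holds 4 CHR and 6 CCAAT matches, and that of Mki67 holds 2 and 3. In Ube2c a forward and a reverse CCAAT match overlap, and they begin 186 and 183 bases before the start. The Bub1b promoter has 1 match of each before the start, further upstream than in Cdc20, at 188 and 113 bases.

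Of the 40 genes, 39 passed the expression filter, a mean deposited FPKM (fragments scaled to gene length and library size) of at least 1 over the 4 libraries. All 39 were expressed at a mean of 6.87 FPKM (Ndc80) or more. Cdc20, Top2a, Ube2c, Ccnb2, Ccnb1, Ccna2, Tpx2, Mki67 and Plk1 stood highest, at a mean of 93.4, 59.7, 52.6, 47.2, 45.9, 45.6, 45.3, 43.4 and 41.5 FPKM. From Ccnb2 to Plk1 these neighbours overlapped from library to library, so their order is not fixed by these data. The length in the FPKM is the sum of all exonic bases annotated for a gene, which is longer than a single transcript, so levels between genes hold only on that scale. The plot of FPKM by gene shows that the 4 libraries of a gene lay close together for every gene but Plk4.

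**Figure D1:**
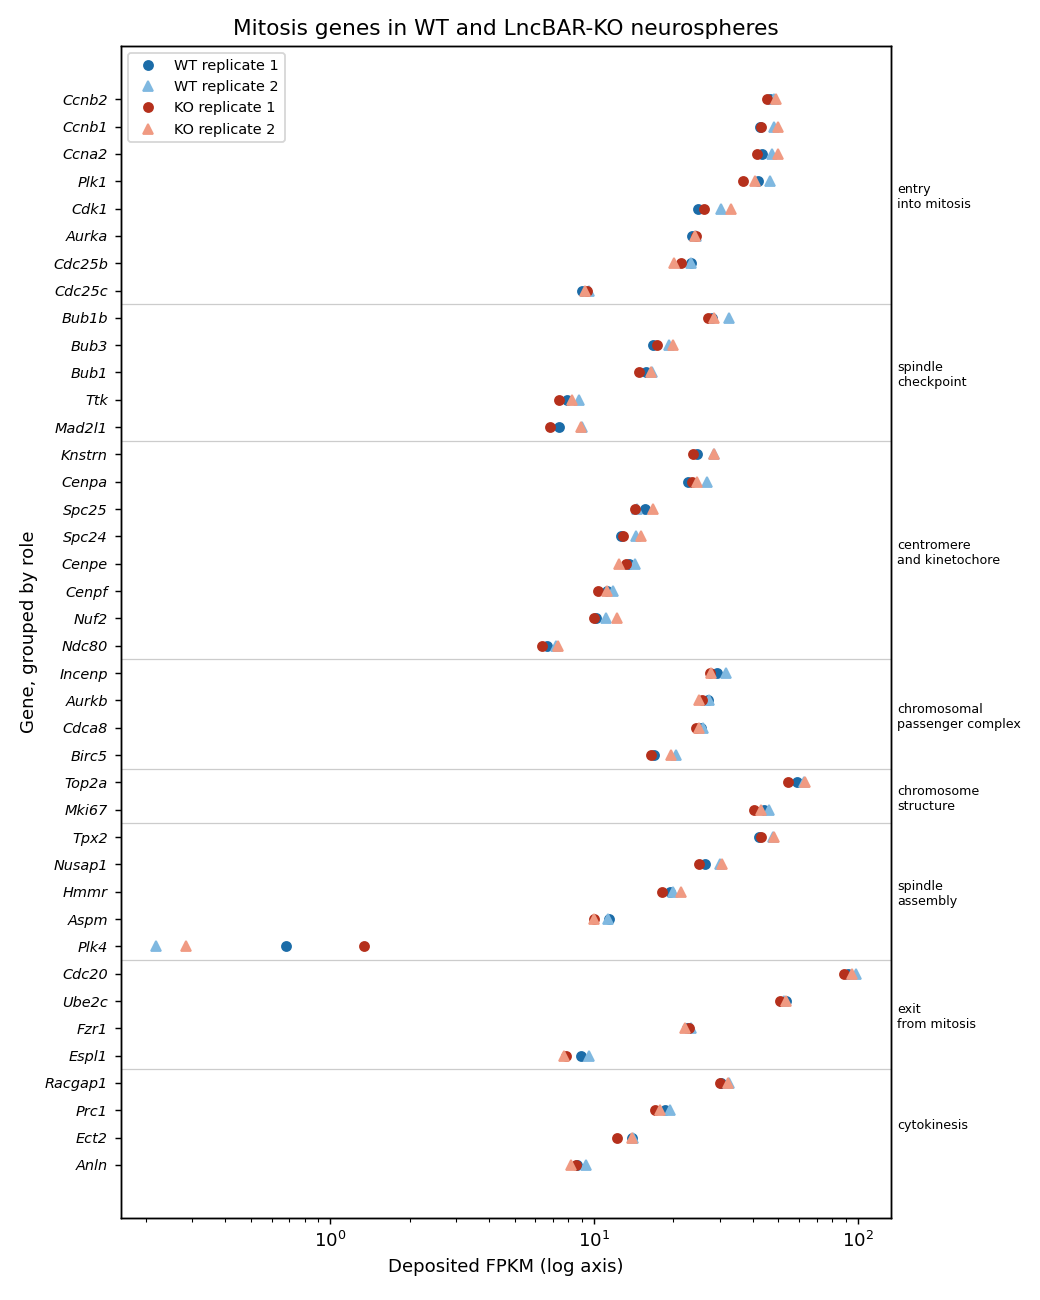
Deposited FPKM (log axis) of each of the 40 genes in each library, grouped by role; circles are replicate 1, triangles replicate 2, blue WT and red KO. Points of a gene nearly coincide, from Cdc20 at a mean of 93.4 FPKM down to Ndc80 at 6.87, while Plk4 is low and spread from 0.218 to 1.34 FPKM.

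KO was compared with WT for the RNA of the mitotic programme. Sex-chromosome content differed between the genotypes as well (Xist and Y gene counts are given below), so the contrast is of both together. None of the 39 genes passed an adjusted p of 0.05 in edgeR's quasi-likelihood test (smallest adjusted p = 0.811), where 0.0692% of all 12997 genes tested passed. The 9 genes in that share included Xist, lower in KO, and 4 genes of the Y chromosome, higher in KO. DESeq2 and limma on log2(FPKM + 1) also called 0 of the 39, and the authors' deposited table lists 0 with an adjusted p under 0.05. At an unadjusted p under 0.05 edgeR gave 2 genes, Espl1 and Aspm, both lower in KO, where 5.92% of all genes tested had such a p and 2.95% had it in that direction. This number was 6 under a replicate block, and it also moved when single libraries were left out. The share of all genes with such a p was not computed for those fits. The estimated differences were small as well as uncalled. All values inside the 95% interval were within 1.5-fold in either direction in 39 of 39 genes (78.8% of all genes tested). They were within 1.3-fold for 37 (56.5%). The median standard error was 0.0867 for the 39 genes and 0.1053 for all genes tested. Narrower intervals alone place more genes inside such bounds, so these shares do not show that mitosis genes were steadier.

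Log2 fold changes of KO over WT ran from -0.26 to 0.10 with a median of -0.05, beside a median of 0.00 over all genes tested. They were negative for 29 of 39 genes (74.4%, against 49.0% of all genes). In 13 genes (33.3%) both KO libraries lay below both WT libraries in CPM (counts scaled to a common library size), which held for 18.7% of all genes. In 0 genes did both KO libraries lie above both WT libraries, which held for 18.1% of all genes. The shift rested on single libraries: the number of negative genes was 38 without WT replicate 1 and 36 without KO replicate 2, but 21 without WT replicate 2 and 19 without KO replicate 1. The median was -0.01 without WT replicate 2 and 0.00 without KO replicate 1.

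**Figure D2:**
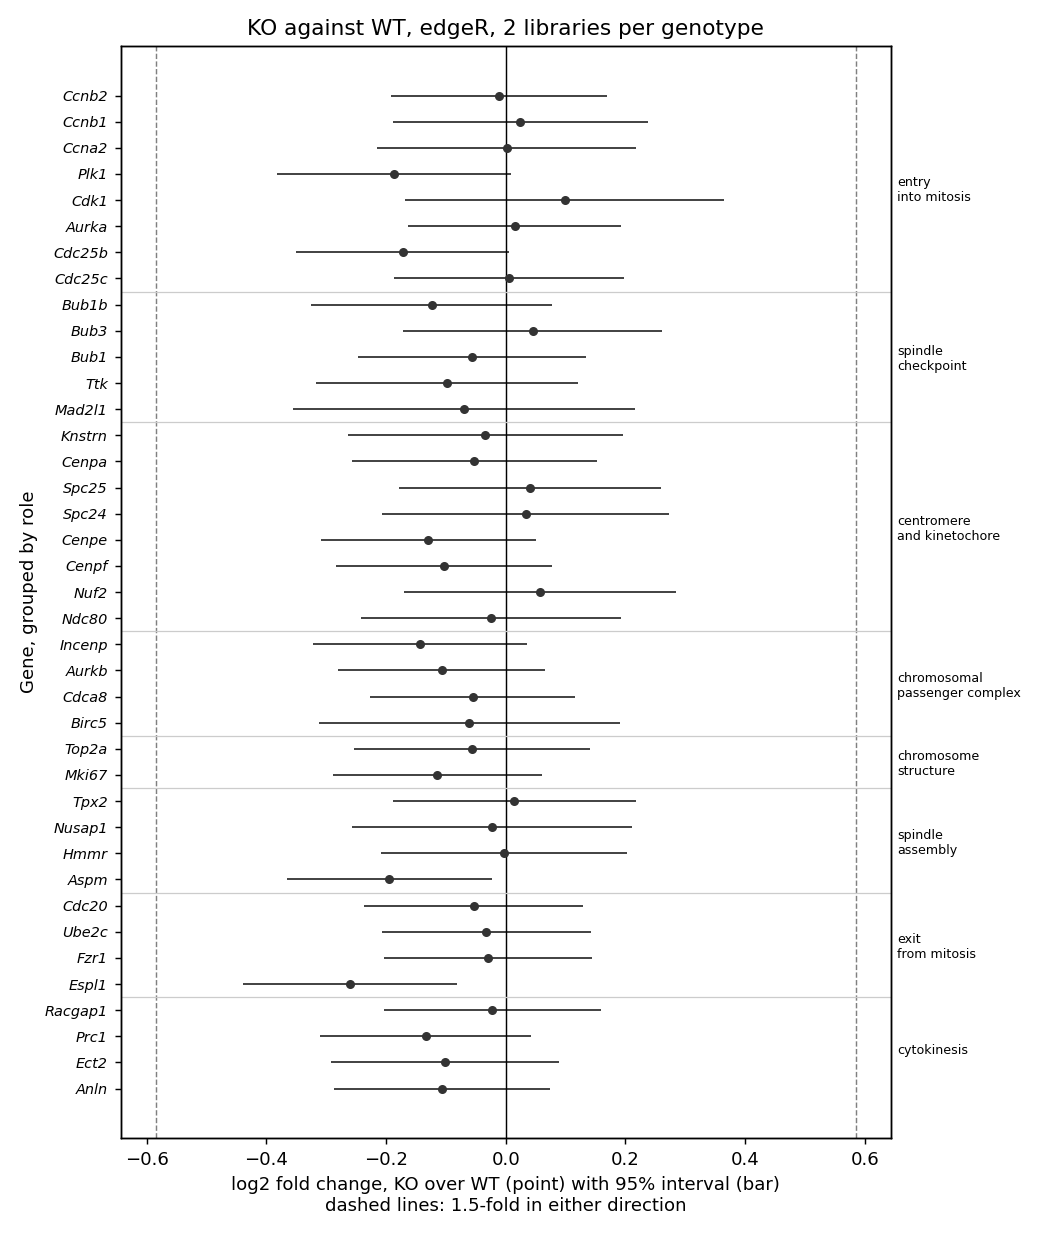
Log2 fold change of KO over WT (points) with its 95% interval from edgeR (bars) for the 39 genes tested, grouped by role, with 2 libraries per genotype; dashed lines mark 1.5-fold in either direction. Every bar stays inside the dashed lines, and only those of Espl1 and Aspm do not cross 0.

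Among genes that bring cells into mitosis, 5 of 8 had a positive and 3 a negative log2 fold change. Ccnb2 (cyclin B2) had the highest level of the group, at 46.6 and 48.0 FPKM in WT replicates 1 and 2 and 45.2 and 49.1 FPKM in KO replicates 1 and 2. The KO libraries enclosed the WT libraries, with a log2 fold change of -0.01 ± 0.08 (SE). Cdk1, the kinase that cyclin B activates, stood at 24.8 and 30.3 FPKM in WT and 26.3 and 33.0 FPKM in KO. Its value of 0.10 ± 0.12 was the highest log2 fold change of all 39 genes, and yet the difference between replicates 1 and 2 inside each genotype was larger. Cdc25b, the phosphatase that starts Cdk1 activation, had the smallest p of the group, at 23.3 and 23.3 FPKM in WT and 21.5 and 20.1 FPKM in KO. Both KO libraries lay below both WT libraries (-0.17 ± 0.08, adjusted p = 0.811 in edgeR). Plk1, the Polo kinase of mitotic entry and spindle assembly, was at 41.8 and 46.3 FPKM in WT and 36.8 and 40.9 FPKM in KO. These groups did not overlap either (-0.19 ± 0.09). The related phosphatase gene Cdc25c (0.01 ± 0.09), Aurka (0.01 ± 0.08), Ccna2 (0.00 ± 0.10) and Ccnb1 (0.02 ± 0.10) lay at 0 within their error.

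The spindle checkpoint genes had 4 of 5 negative values (against 49.0% of all genes), and in none of them were the genotypes apart. Bub1b (BubR1, an inhibitor of the anaphase-promoting complex) had both the highest level and the smallest p here, at 28.0 and 32.5 FPKM in WT and 27.1 and 28.7 FPKM in KO. Its log2 fold change of -0.12 ± 0.09 came with KO replicate 2 above WT replicate 1, and only WT replicate 2 stood apart. Bub3, its binding partner, was at 16.8 and 19.3 FPKM in WT and 17.3 and 20.0 FPKM in KO (0.05 ± 0.10). The kinases Bub1 (-0.06 ± 0.09) and Ttk (Mps1, -0.10 ± 0.10) and the Cdc20 inhibitor Mad2l1 (-0.07 ± 0.13) completed the group. Mad2l1 had the largest SE of the 39 genes, since replicate 2 exceeded replicate 1 by a log2 CPM ratio of 0.28 in WT and 0.37 in KO.

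At the centromere and kinetochore 3 of 8 genes had a positive log2 fold change. Knstrn, a kinetochore partner of astrin, had the highest level, at 24.7 and 28.6 FPKM in WT and 23.8 and 28.4 FPKM in KO (-0.03 ± 0.10). Cenpe, itself a kinesin-type motor that carries chromosomes to the spindle equator and is kept in the set under its centromere name, had the smallest p, at 13.6 and 14.3 FPKM in WT and 13.2 and 12.4 FPKM in KO. Its groups did not overlap (-0.13 ± 0.08, adjusted p = 0.834 in edgeR). The 4 subunits of the NDC80 complex, the main microtubule anchor of the kinetochore, had means of 6.87 (Ndc80), 10.9 (Nuf2), 13.8 (Spc24) and 15.3 FPKM (Spc25). None of these subunits separated the genotypes. Nuf2 was at 10.1 and 11.1 FPKM in WT and 9.99 and 12.2 FPKM in KO (0.06 ± 0.10). Spc25 was at 15.6 and 14.5 FPKM in WT and 14.4 and 16.8 FPKM in KO (0.04 ± 0.10), the only one of the 4 with WT replicate 1 above WT replicate 2. Cenpa, the histone H3 variant that marks centromeres, had a value of -0.05 ± 0.09, and Cenpf, a large outer kinetochore protein, of -0.10 ± 0.08. The groups of Cenpf did not overlap either, at 176 and 185 CPM in WT and 162 and 174 CPM in KO. In CPM both KO libraries thus lay below both WT libraries in 2 of the 8 genes (25%, against 18.7% of all genes tested).

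All 4 genes of the chromosomal passenger complex, which corrects faulty attachments, had negative values (against 49.0% of all genes). Incenp, its scaffold, was at 29.2 and 31.7 FPKM in WT and 27.5 and 27.8 FPKM in KO. The 2 genotypes did not overlap (-0.14 ± 0.08, adjusted p = 0.830 in edgeR). They also did not overlap for the kinase Aurkb (-0.11 ± 0.08) and, narrowly, for Cdca8 (borealin, -0.05 ± 0.08, adjusted p = 0.919 in edgeR). Both KO libraries lay below both WT libraries in CPM in 18.7% of all genes tested. Birc5 (survivin) overlapped, at -0.06 ± 0.11.

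Of the chromosome structure genes, Top2a encodes the topoisomerase that untangles sister chromatids and Mki67 the coat protein of mitotic chromosomes that is used as a proliferation marker. Top2a stood at 59.1 and 62.4 FPKM in WT and 54.4 and 63.0 FPKM in KO, with KO replicate 1 lowest and KO replicate 2 highest (-0.06 ± 0.09). Mki67 stood at 44.1 and 46.0 FPKM in WT and 40.4 and 43.1 FPKM in KO. Both KO libraries were below both WT libraries (-0.11 ± 0.08, adjusted p = 0.839 in edgeR).

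Spindle assembly genes had 3 of 4 negative values (against 49.0% of all genes). Tpx2, which nucleates microtubules around chromosomes and activates Aurora A, was at 42.2 and 47.7 FPKM in WT and 43.1 and 48.2 FPKM in KO (0.01 ± 0.09). Replicate 2 of each genotype lay above replicate 1 of both genotypes. Aspm, a spindle pole protein whose loss causes microcephaly, was at 11.5 and 11.3 FPKM in WT and 9.97 and 9.98 FPKM in KO. Its libraries agreed closely inside each genotype and the genotypes were apart, with a log2 fold change of -0.19 ± 0.08 (unadjusted p = 0.0298, adjusted p = 0.811 in edgeR). Nusap1 (-0.02 ± 0.11) and Hmmr (0.00 ± 0.09), both microtubule-binding, had KO replicate 1 lowest and KO replicate 2 highest.

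Plk4, the kinase that starts centriole duplication, was the gene below the filter, with 84 and 26 counts in WT replicates 1 and 2 and 161 and 35 counts in KO replicates 1 and 2. Its level was higher in replicate 1 of each genotype, opposite to most of the set. No exon of Plk4 overlaps another annotated gene, and the cause of the uneven counts was not tested. Other genes of centriole duplication were expressed more evenly. Stil was at 9.57 and 9.83 FPKM in WT and 8.78 and 10.2 FPKM in KO, and Sass6 counts were 232 and 229 for WT, then 209 and 233 for KO; both genes were chosen after their values were seen.

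All 4 genes of mitotic exit had negative values (against 49.0% of all genes). Cdc20, the activator of the anaphase-promoting complex and the highest of all 40 genes, was at 91.5 and 98.3 FPKM in WT and 88.6 and 95.2 FPKM in KO (-0.05 ± 0.08). Espl1 (separase), the protease that cuts cohesin, was at 8.93 and 9.61 FPKM in WT and 7.83 and 7.72 FPKM in KO. It had the lowest log2 fold change and the smallest p of the 39 genes (-0.26 ± 0.08, unadjusted p = 0.00872, adjusted p = 0.811 in edgeR), with both KO libraries below both WT libraries. Fzr1 (Cdh1), the other activator of that complex, and its ubiquitin-conjugating enzyme Ube2c were at -0.03 ± 0.08 each.

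Cytokinesis genes had 4 of 4 negative values (49.0% of all genes were negative) and, in CPM, both KO libraries below both WT libraries in 3 (18.7% of all genes). Racgap1, a centralspindlin subunit, had the highest level, at 30.4 and 32.5 FPKM in WT and 30.0 and 32.2 FPKM in KO (-0.02 ± 0.08). Prc1, the bundler of midzone microtubules, had the smallest p, at 18.5 and 19.5 FPKM in WT and 17.0 and 17.8 FPKM in KO (-0.13 ± 0.08, adjusted p = 0.832 in edgeR). The genotypes of Prc1 did not overlap, nor did those of the ring protein Anln (-0.11 ± 0.08). Those of Ect2, the RhoA exchange factor (-0.10 ± 0.09), were apart in CPM but not in FPKM, where KO replicate 2 stood just above WT replicate 1.

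In the median over the 39 genes, libraries of 1 genotype lay further apart than the 2 genotypes did. The median deviation of log2 CPM from the mean of the 4 libraries was -0.01 for WT replicate 1, 0.08 for WT replicate 2, -0.09 for KO replicate 1 and 0.03 for KO replicate 2. Over all genes tested these medians were 0.00 in every library. KO replicate 1 was the lowest library for 24 of 39 genes (61.5%, against 20.1% of all genes), and WT replicate 2 the highest for 22 (56.4%, against 22.5%). Together the 39 genes took 0.495% and 0.534% of all counts in WT and 0.472% and 0.506% in KO.

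Replicate 2 exceeded replicate 1 in 35 of the 39 genes in WT, in 30 in KO and in 28 in both genotypes (71.8%, against 29.8% of all genes). Cdk1, Mad2l1 and Birc5 were among the genes with the largest such differences, with log2 CPM ratios of 0.28, 0.28 and 0.28 in WT and 0.32, 0.37 and 0.24 in KO. Espl1, Cenpe, Anln, Aurkb, Fzr1, Aurka and Cdc25c were higher in replicate 2 in WT alone, Spc25 and Ube2c in KO alone, and Aspm and Cdc25b in neither genotype. Over the 39 genes the ratios of the 2 genotypes had a Pearson's r of 0.507, a description of points that share the same 4 libraries. The labels do not say that a replicate number marks a shared litter or day.

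**Figure D3:**
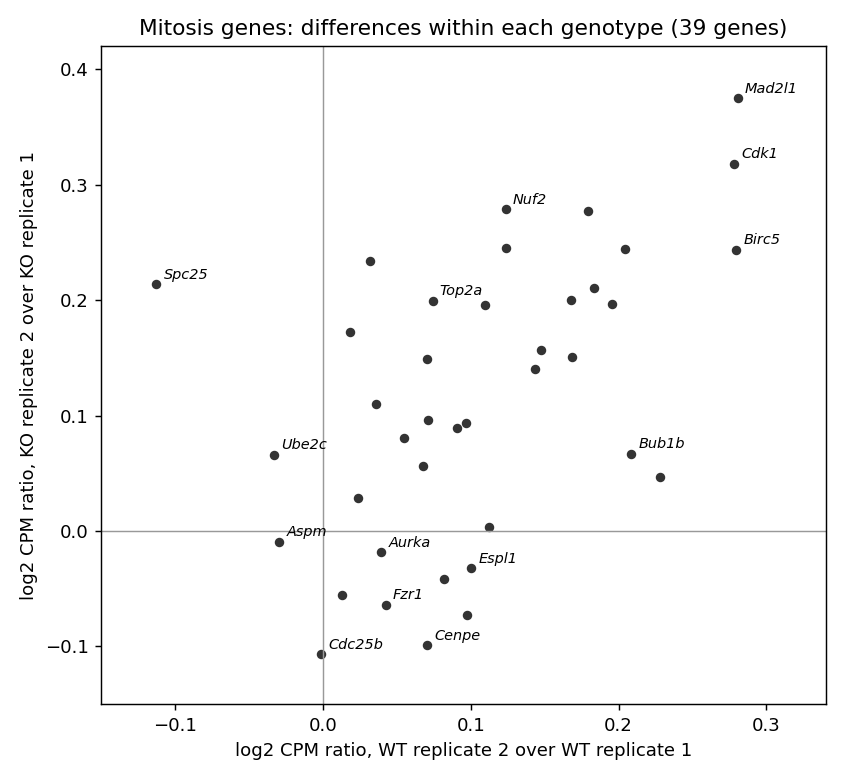
Each point is 1 of 39 genes, with the log2 CPM ratio of replicate 2 over replicate 1 in WT (x axis) and in KO (y axis). The upper right holds 28 genes, with Mad2l1 and Cdk1 farthest out, while Aspm and Cdc25b lie below 0 on both axes.

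Related genes showed the same order of libraries. In a list of 113 other genes of mitosis, of which 112 were tested, 76 had a negative log2 fold change (67.9%, against 49.0% of all genes) and the median was -0.04. None passed in edgeR, and 7 had an unadjusted p under 0.05, all lower in KO, where 5.92% of all genes had such a p and 2.95% had it lower in KO. The smallest p values lower in KO were those of Cit, the citron kinase of cytokinesis (-0.35 ± 0.09), and Cdca2 (-0.25 ± 0.09), and higher in KO those of the kinetochore gene Zwint (0.21 ± 0.10) and the ubiquitin-conjugating enzyme Ube2s (0.15 ± 0.08), with adjusted p of 0.811, 0.811, 0.811 and 0.830. Foxm1, the activator of many promoters with a CHR, was chosen after its values were seen and stood at 22.7 and 23.7 FPKM in WT and 19.9 and 20.6 FPKM in KO. Its KO libraries were both below WT (-0.20 ± 0.08, adjusted p = 0.811). Nek2, a centrosome kinase and also chosen after its values were seen, was the gene of that list below the filter: WT replicates 1 and 2 held 15 and 31 of its reads and the KO replicates 25 and 13.

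DNA replication and S phase genes (46 of 46 tested) had a median log2 fold change of -0.02 and 25 negative values. In 40 of them (87.0%) replicate 2 exceeded replicate 1 in both genotypes. Their median deviations were -0.10 and 0.13 in WT and -0.12 and 0.09 in KO, so these genes were divided by replicate number more widely than the mitosis genes were. In only 3 of the 46 were both KO libraries below both WT libraries (6.52%), under the 18.7% of all genes and beside 13 of 39 mitosis genes; this difference between lists was not tested.

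**Figure D4:**
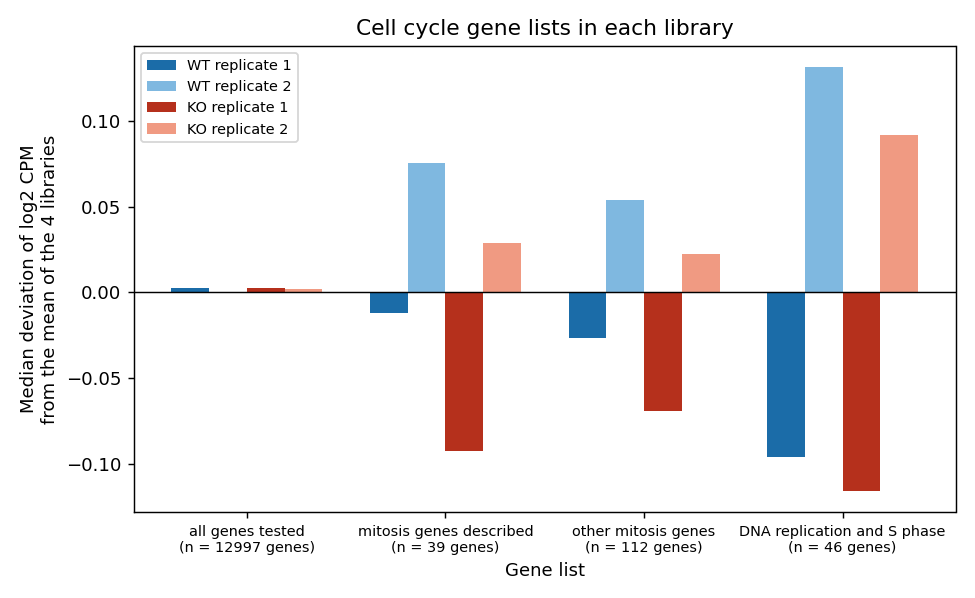
Median deviation of log2 CPM from the mean of the 4 libraries, by gene list and library (bars; n is the number of genes). All genes lie at 0.00, the mitosis genes run from -0.09 in KO replicate 1 to 0.08 in WT replicate 2, and the S phase genes are low in replicate 1 and high in replicate 2 of both genotypes.

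The median log2 fold change was -0.06 in the 25 tested genes with a CHR and -0.03 in the others with a matched promoter, a difference that was not tested. Longer genes tended to lower values by rank: Spearman's rho of log2 fold change and length was -0.279 over the 39 genes and -0.285 over all genes tested, while Pearson's r with log2 length was -0.285 and -0.044, with a median length of 4919 and 4058 bases, and the part of length in the values above was not tested. In 12 of the 40 genes exons overlap another annotated gene, on the opposite strand in all but Top2a, whose overlap is a small nucleolar RNA gene. The kit did not keep strand, so such reads cannot be told apart. Prc1 (911 exonic bases, shared with Rccd1), Cdc25c (623), Ube2c (592) and Ccna2 (510) share the most bases, and how many reads fall there was not measured.

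Deposited counts added up to 17244057 to 18280445 per library. Neural stem cell and radial glia markers were all expressed (12 of 12 at a mean of at least 1 FPKM, summed levels of 2809 and 2902 FPKM in WT and 2999 and 3097 in KO). Without Fabp7, the highest of them, the sum was 1469 and 1505 in WT against 1517 and 1484 in KO, and 7 of the 12 had a negative log2 fold change (median -0.03). Of 13 markers of postmitotic neurons 9, Dcx and Rbfox3 among them, had a mean under 1 FPKM, and the summed level was 186 and 202 FPKM in WT and 204 and 251 in KO. Without Gap43, its highest gene, that sum was 50.5 and 51.2 in WT against 51.5 and 49.98 in KO. Oligodendrocyte lineage markers summed to 723 and 767 FPKM in WT and 763 and 780 in KO, and astrocyte markers to 60.7 and 49.2 in WT and 53.9 and 45.4 in KO. KO replicate 2 was lowest in the median deviation of both lists (-0.35 and -0.22), with median log2 fold changes of -0.16 and -0.12, and their part in the values of the mitosis genes was not tested. The share of cycling cells and the mitotic RNA per cell cannot be told apart in such bulk libraries. A change in either was not established here, as none of the mitosis genes was called. Of 4 intermediate progenitor markers, Eomes, Neurog1 and Neurog2 had a mean under 1 FPKM. The other, Btg2, was at 58.45 and 57.05 FPKM in WT and 58.66 and 50.79 FPKM in KO. Markers of microglia, endothelium, fibroblasts and erythroid cells were all under 1 FPKM, with C1qa, Cdh5 and 4 haemoglobin genes at 0 counts. No row is named LncBAR, so its level was not analysed here. Counts of Xist, made by the inactive X, were 36766 and 31563 in WT but 7 and 4 in KO, and those of the Y gene Ddx3y were 0 in both WT libraries but 1496 and 1847 in KO, so genotype and sex-chromosome content cannot be told apart in any comparison above.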

How the data were processed

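The authors deposited 1 table. Its columns hold whole-number read counts per gene and library, not normalized, and FPKM values, both named so per the file headers. It also holds the authors' deposited comparison: a mean signal per genotype, a log2 fold change and p-values, made with a tool not given in the sources used here. The submitters' processing notes name the mm10 build, Cufflinks 2.2.1, TopHat2 2.1.1 and cutadapt 1.16, and no counting tool. Reads were pairs of 150 bp from a kit without strand, per the labels' protocols. Gene coordinates and lengths of all 40 genes equal those of GENCODE M21.

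Genes with a mean FPKM of at least 1 (12997) were fitted with edgeR 4.0.16 in R 4.3.3: TMM scaling, quasi-likelihood test, genotype as the only factor, Benjamini-Hochberg adjustment over all genes tested, threshold 0.05. Alternatives used DESeq2 1.42.0 and limma 3.58.1. The SE is the log2 fold change divided by the square root of F; 95% intervals use the test's degrees of freedom. An exact permutation test of 2 against 2 cannot go below p = 0.333 and was not used. Counts for KO against WT were simulated with 12997 genes, 200 of them changed. The fit recovered 30% of genes changed 1.3-fold, 64% changed 1.5-fold and 84% changed 2-fold. It made 22 calls among unchanged genes, above the nominal false discovery rate and more than the 9 calls of the real data. All 39 estimates were smaller than 1.3-fold, so the power for changes of their size was not measured.

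The members, role groups and lists were chosen with earlier results of these data known. In each role group the gene of highest mean FPKM and that of smallest p are given with every library, as are the 4 highest and 4 lowest log2 fold changes; of the other mitosis genes, the 2 of smallest p in each direction.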

Additional observations from a re-analysis of the deposited data

How the results depend on the processing

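None of the 12 alternatives (RLE or upper-quartile scaling, DESeq2, limma with a pseudocount of 1 or 0.1, no filter, filterByExpr, each library left out, a replicate block) called any of the mitosis genes. The smallest adjusted p among them was 0.207 for Espl1 under the replicate block. With all 4 libraries, the 19 genes given by the naming rule kept their direction in every alternative, except that Ccnb2 was at 0.00 without a filter. Leaving out single libraries moved the median log2 fold change between -0.12 and 0.00 and the number of negative genes between 19 and 38. It turned the direction of 9 of the 19 genes, whose log2 fold changes then ranged from -0.0574 to 0.146 (Bub3), -0.0675 to 0.0444 (Ccnb2), -0.0701 to 0.250 (Cdk1), -0.162 to 0.0842 (Knstrn), -0.0897 to 0.191 (Nuf2), -0.0684 to 0.0236 (Racgap1), -0.0705 to 0.145 (Spc25), -0.160 to 0.0413 (Top2a) and -0.0671 to 0.101 (Tpx2). These fits take the spread of the genotype left with 1 library from the other genotype. Over all genes the number of calls, 9 in edgeR, was 4 and 3 in limma with a pseudocount of 1 and 0.1, 31 without a filter and 15 to 86 with a library left out; the cause was not tested.

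With the replicate number as a block, edgeR called 24 genes of all and 0 of the 39, and the median was -0.05. An unadjusted p under 0.05 was found in 6 of the 39 in place of 2. The share of all genes with such a p under the block was not computed, so the 6 have no background to be read against. Deviations of same-numbered libraries from their group means had a correlation of 0.09 over all genes tested and 0.51 over the 39 genes; with 2 numbers this does not show that the numbers pair the libraries.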
